A study of Mus musculus with 6 samples.

Results

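Messenger RNA of 9 genes of inflammasomes and pyroptosis was followed in microglia, the brain's own macrophages, kept in culture. The genes were Nlrp3, Aim2, Nlrc4, Nlrp1b, Nek7, Pycard, Casp1, Casp4 and Gsdmd. They were chosen by name for their place in this pathway, with earlier results of these data known. Each was found as 1 entry of its own among the 48005 gene entries of the count table. All 9 passed the filter on low counts, which left 16605 entries to test. The microglia had a CD1 mouse background. In 1 group, 3 RNA samples (EV-treated A, B and C) came from microglia given extracellular vesicles (EVs), which are membrane-bound particles released by cells. The vesicles came from primary neural stem cells of the subventricular zone of CD1 mice, grown as monolayers, and were collected by serial centrifugation. The other 3 samples (control A, B and C) came from microglia given a control treatment. The vesicle dose, the exposure time and the composition of the control treatment are not stated in the sources read here. Nothing in the labels tells whether the 3 samples of a group are separate cultures or animals. The p-values then rest on the spread among these 6 samples alone, and that spread may be technical.

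An inflammasome is a protein complex that assembles in the cytosol around a sensor of infection or damage. Sensors such as NLRP3, AIM2, NLRC4 and NLRP1B recruit pro-caspase-1, in most cases through the adaptor ASC, which is encoded by Pycard. Active caspase-1 cuts the precursors of interleukin 1 beta and interleukin 18 and the pore protein gasdermin D, and gasdermin D pores can end in the lytic cell death called pyroptosis. In mice caspase-11, encoded by Casp4, cuts gasdermin D directly after it meets bacterial lipopolysaccharide, the non-canonical route. Macrophages and microglia are known to keep NLRP3 low at rest and to raise it by a priming signal through NF-kB, a family of transcription factors.

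The sequences before the start sites of 4 of the genes are printed here because these genes took different courses between the groups: Nlrp3 and Casp4 rose, Pycard fell, and Casp1 did not pass the test. They are RefSeq sequences on the GRCm38.p6 build, 5′ to 3′ on the strand of the gene, and each ends with the base just before the annotated start. Capitals mark matches to the consensus of NF-kB, or to the core motif GAGGAA of PU.1, a transcription factor of macrophages and microglia, on either strand. Nlrp3 has 2 annotated starts, and both are shown.
Nlrp3, first start, chr11:59541319-59541568, plus strand: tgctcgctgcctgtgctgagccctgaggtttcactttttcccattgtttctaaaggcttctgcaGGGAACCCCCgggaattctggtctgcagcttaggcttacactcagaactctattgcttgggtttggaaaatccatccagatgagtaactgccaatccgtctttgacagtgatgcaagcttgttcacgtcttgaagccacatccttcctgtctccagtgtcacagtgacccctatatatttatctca
Nlrp3, second start, chr11:59542436-59542685, plus strand: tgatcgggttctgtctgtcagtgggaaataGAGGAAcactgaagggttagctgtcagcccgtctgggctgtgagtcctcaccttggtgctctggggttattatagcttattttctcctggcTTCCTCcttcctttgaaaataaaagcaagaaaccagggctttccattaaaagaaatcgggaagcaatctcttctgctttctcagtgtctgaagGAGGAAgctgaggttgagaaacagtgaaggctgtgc
Casp4, first start, chr9:5308599-5308848, plus strand: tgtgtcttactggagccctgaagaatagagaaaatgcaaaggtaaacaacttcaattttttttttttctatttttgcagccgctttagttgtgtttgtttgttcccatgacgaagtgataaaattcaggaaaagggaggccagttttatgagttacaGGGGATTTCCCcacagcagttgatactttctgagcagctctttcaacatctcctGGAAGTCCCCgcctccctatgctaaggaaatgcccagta
Pycard, chr7:127993868-127994117, minus strand: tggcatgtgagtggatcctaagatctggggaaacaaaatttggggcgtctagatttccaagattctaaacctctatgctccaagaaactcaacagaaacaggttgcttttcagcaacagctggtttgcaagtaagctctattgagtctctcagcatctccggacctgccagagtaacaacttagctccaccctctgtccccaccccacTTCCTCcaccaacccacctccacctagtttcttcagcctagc
Casp1, chr9:5298267-5298516, plus strand: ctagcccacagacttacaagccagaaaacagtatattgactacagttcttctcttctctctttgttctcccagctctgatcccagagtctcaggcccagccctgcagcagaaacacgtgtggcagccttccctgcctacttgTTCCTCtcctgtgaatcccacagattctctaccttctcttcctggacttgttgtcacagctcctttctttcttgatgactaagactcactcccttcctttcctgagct

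Windows from 250 bases before to 50 bases after the start were searched on both strands, and 8 of the 9 genes had one or more, 11 windows in all. Gsdmd had no entry. The NF-kB consensus matched 2 of the 8 genes: Nlrp3 at the first start, from -186 to -177 relative to the start base at 0, and Casp4, from -93 to -83 and from -39 to -30. Counted by window, 3 of the 11 held such a match, beside 8.46% of all 32817 windows in the table. The 2 windows of Casp4 start 11 bases apart and share their matches. Nlrc4, which also rose, had no match to the NF-kB consensus or to any other motif searched. The PU.1 core GAGGAA was present in 5 of the 8 genes, namely Nlrp3 at the second start, Aim2, Nlrp1b, Pycard and Casp1, which is 5 of the 11 windows beside 28.3% of all windows. None of the 11 windows held the core of the interferon-stimulated response element (3.43% of all windows), the STAT motif TTCNNNGAA (8.29%), the AP-1 motif TGANTCA (7.81%) or the TATA box TATAAA (13.6%). Overlapping matches on both strands of 1 site count as 1 site here. These matches describe letters, not binding, and a missing match speaks only of these windows.

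The libraries held 109744701 to 162544804 counts each. These are sums over exon bins, in which a read may be counted more than once, so they may exceed the number of distinct reads. Across tested entries, log2 CPM, which are counts relative to the size of the library, correlated with a Pearson r of 0.985 to 0.993 within groups and 0.870 to 0.878 between groups. The microglial label was checked against 11 markers of microglia and macrophages, all of which were detected. Their summed level was 7403 to 9301 CPM in control and 4206 to 4406 CPM after EV treatment. None rose and 8 fell, beside 33.5% of all entries that fell. The median log2 fold change of the 11 was -1.10 and the lowest -7.09. Csf1r (775 ± 34.5 and 807.5 ± 101 CPM, SD, n = 3), Itgam and Aif1 did not pass the test. P2ry12, a marker of resting microglia, was low in both groups, at 3.77 ± 1.14 and 0.0885 ± 0.0334 CPM. Markers of other cells moved with treatment too. The summed level of 6 astrocyte markers was 10.9 to 15.5 CPM in control and 58.2 to 92.3 CPM after EV treatment, nearly all of the latter from Slc1a2, with Gfap and Aqp4 at or near 0. That of 6 markers of neural stem and progenitor cells was 46.5 to 83.2 and 4.83 to 7.03 CPM, mostly Nes, and that of 5 neuronal markers stayed between 0.289 and 0.610 CPM. For 7 oligodendrocyte markers it was 37.0 to 45.1 and 12.1 to 14.6 CPM, mostly Mbp, for 5 fibroblast markers 14.8 to 40.6 and 11.6 to 17.7 CPM, and for 4 endothelial markers 71.4 to 170 and 17.3 to 24.0 CPM, mostly Flt1. Single tested markers in these sums went both ways. Among 3 endothelial markers 2 rose and 1 fell, and among 4 fibroblast markers 1 rose and 2 fell. For progenitor markers 1 of 3 rose and 1 fell, and for oligodendrocyte markers 1 of 4 rose and 1 fell. Of all entries, 33.0% rose and 33.5% fell. The 5 neutrophil markers summed to 1.48 to 3.23 and 24.8 to 34.0 CPM, nearly all S100a8, with S100a9 at 0 in all 6 libraries, and the 4 lymphocyte markers to at most 0.129 CPM. The part of these shifts in the results that follow was not tested. In bulk RNA, fewer cells of a type and less RNA per cell cannot be told apart.

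The comparison asks how vesicles of neural stem cells change the transcripts of this pathway in microglia. With edgeR's quasi-likelihood test and an adjusted p under 0.05, 3 of the 9 genes rose (Nlrp3, Casp4 and Nlrc4), 4 fell (Pycard, Nlrp1b, Aim2 and Nek7) and 2 did not pass (Casp1 and Gsdmd). Of all 16605 entries tested, 66.5% passed in either direction, 33.0% as rises and 33.5% as falls, so the number of calls among the 9 is near that background. The groups did not overlap for 7 of the 9 genes, against 71.3% of all entries. What set 2 members apart by size was Nlrp3, whose log2 fold change exceeded 4, as did 4.34% of all entries, and Pycard, whose log2 fold change was under -4, as was 1.52%. The median over the 9 was -0.12 and over all entries -0.02. With library totals in place of TMM scaling the median of all entries became -0.38, with upper-quartile scaling -0.14, and without the filter 0.17, and small changes should be read relative to these shifts.

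**Figure D1:**
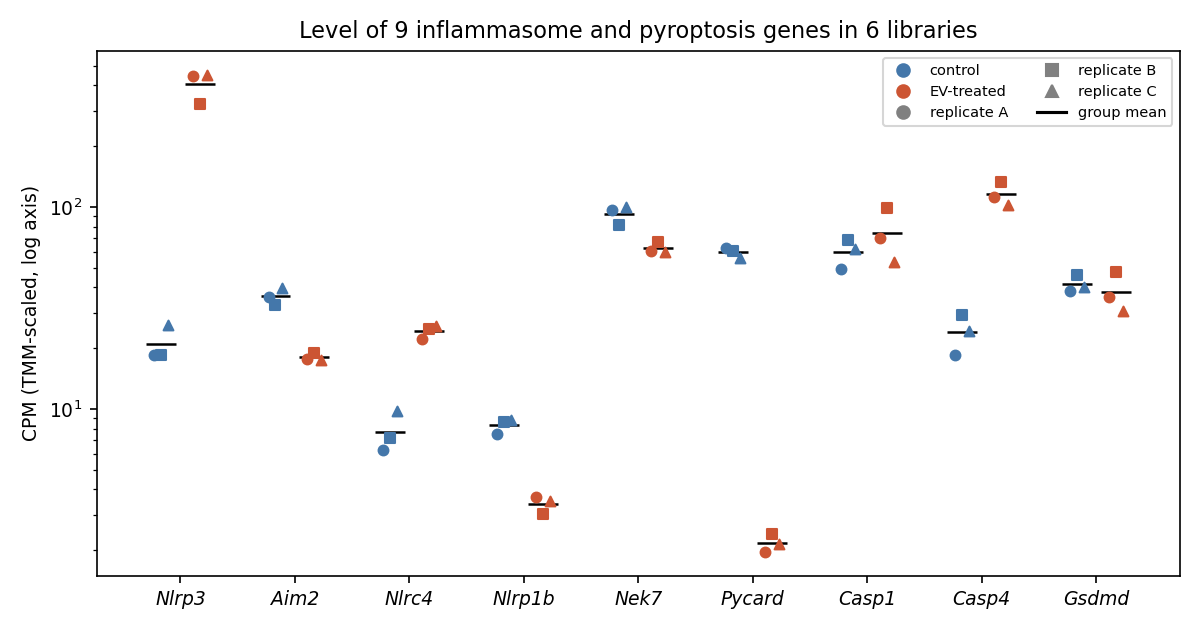
Level of each of the 9 genes in the 6 libraries, in TMM-scaled CPM on a log axis. Points are libraries (marker shape, replicate letter), bars are group means, and the groups are apart for all genes but Casp1 and Gsdmd, with Nlrp3 going from 21.1 to 408 CPM and Pycard from 59.7 to 2.17 CPM.

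Among the sensors, Nlrp3 rose the most. NLRP3 answers to potassium efflux, crystals and many forms of cell stress. Its transcript (ENSMUSG00000032691, chr11:59541568-59566956, plus strand, GRCm38) had 18.5, 18.6 and 26.2 CPM in control A, B and C, and 448, 325 and 453 CPM in EV-treated A, B and C. Each EV-treated library lay far above each control library, and EV-treated B was the lowest of its group. The mean went from 21.1 ± 4.40 to 408 ± 72.2 CPM (SD, n = 3), a log2 fold change of 4.27 ± 0.20 (SE; edgeR adjusted p = 9.84e-08), or 19.4-fold. Of all entries, 3.85% had a higher log2 fold change.

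Nlrc4 (ENSMUSG00000039193, chr17:74426295-74459108, minus strand) encodes the partner of the NAIP receptors, which bind bacterial flagellin and secretion system proteins. It had 6.25, 7.15 and 9.78 CPM in control and 22.3, 25.0 and 25.9 CPM after EV treatment. The groups were apart, with means of 7.73 ± 1.83 and 24.4 ± 1.85 CPM (SD, n = 3) and a log2 fold change of 1.66 ± 0.17 (SE; edgeR adjusted p = 1.72e-05).

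The other 2 sensors fell. Aim2 (ENSMUSG00000037860, chr1:173350879-173466040, plus strand) encodes a receptor of cytosolic double-stranded DNA. It stood at 36.0, 32.6 and 39.6 CPM in control and at 17.6, 18.8 and 17.5 CPM after EV treatment, whose spread was narrow. Its mean went from 36.1 ± 3.51 to 18.0 ± 0.720 CPM (SD, n = 3), a log2 fold change of -1.0 ± 0.11 (SE; edgeR adjusted p = 2.54e-05). Nlrp1b (ENSMUSG00000070390, chr11:71153102-71230733, minus strand) encodes a sensor that anthrax lethal factor activates by cutting it. Its level was 7.55, 8.64 and 8.80 CPM in control and 3.66, 3.02 and 3.49 CPM after EV treatment. All EV-treated values were below all control values, and the log2 fold change was -1.30 (SE 0.14, adjusted p = 3.02e-05). In the GENCODE vM21 transcripts, 3 of the stretches of 100 bases of Nlrp1b (0.0476%) also occur in its neighbour Nlrp1a, and none of those of the other 8 genes occurs in another gene.

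Nek7 (ENSMUSG00000026393, chr1:138482875-138620141, minus strand) encodes a kinase that binds NLRP3 and is needed for its assembly, by its structure and not by its kinase activity. It had 97, 81.8 and 99.6 CPM in control and 60.6, 67.0 and 59.7 CPM after EV treatment. The highest EV-treated library lay below the lowest control library. Its mean went from 92.8 ± 9.62 to 62.4 ± 3.95 CPM (SD, n = 3), and its log2 fold change of -0.57 ± 0.11 (SE; edgeR adjusted p = 0.00125) was the smallest among the 7 members that passed.

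Pycard fell the most of the 9. ASC, its product, joins pyrin-domain sensors to caspase-1 and polymerises into the speck that marks an active inflammasome. The gene (ENSMUSG00000030793, chr7:127989708-127993867, minus strand) had 62.4, 60.8 and 56.1 CPM in control and 1.96, 2.40 and 2.15 CPM after EV treatment. The spread within each group was small beside the distance between them. The mean was 59.7 ± 3.27 CPM in control and 2.17 ± 0.220 CPM after EV treatment (SD, n = 3), with a log2 fold change of -4.78 ± 0.13 (SE; edgeR adjusted p = 4.08e-09), a level 27.5 times higher in control. The depth behind the low values was 243, 273 and 275 counts in EV-treated A, B and C. A lower log2 fold change was seen in 0.903% of all entries.

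Of the 2 inflammatory caspases, Casp4 rose and Casp1 did not pass the test. They lie next to each other on chromosome 9 on the same strand, with 1562 bases between the end of Casp1 (ENSMUSG00000025888, chr9:5298517-5307265) and the start of Casp4 (ENSMUSG00000033538, chr9:5308828-5336783). Casp4, the caspase of the non-canonical route, had 18.5, 29.1 and 24.3 CPM in control and 111.7, 133 and 102 CPM after EV treatment. Its groups were apart, and the mean went from 24.0 ± 5.29 to 115.6 ± 15.9 CPM (SD, n = 3), a log2 fold change of 2.27 ± 0.17 (SE; edgeR adjusted p = 2.49e-06), or 4.82-fold. Casp1, the caspase of the canonical route, had 49.5, 68.6 and 61.6 CPM in control and 70.5, 99.4 and 53.3 CPM after EV treatment. EV-treated A and B were above all control libraries and EV-treated C was below 2 of them. Its mean was 59.9 ± 9.63 CPM in control and 74.4 ± 23.3 CPM after EV treatment (SD, n = 3), with a log2 fold change of 0.31 ± 0.21 (SE; edgeR adjusted p = 0.216). Without EV-treated C the log2 fold change was 0.49 (adjusted p = 0.0368), without EV-treated B it was 0.05 (adjusted p = 0.808), and with library totals as the scaling it was -0.07 (adjusted p = 0.777).

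Gsdmd (ENSMUSG00000022575, chr15:75862339-75867404, plus strand), which encodes the pore protein, had 38.4, 46.0 and 40.1 CPM in control and 35.9, 47.8 and 30.6 CPM after EV treatment. The groups overlapped, since EV-treated B held the highest value of all and EV-treated C the lowest. The means were 41.5 ± 4.0 and 38.1 ± 8.81 CPM (SD, n = 3), and the log2 fold change was -0.12 (SE 0.16, adjusted p = 0.521). With library totals as the scaling it was -0.50 (adjusted p = 0.0148), a call that TMM scaling did not give.

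**Figure D2:**
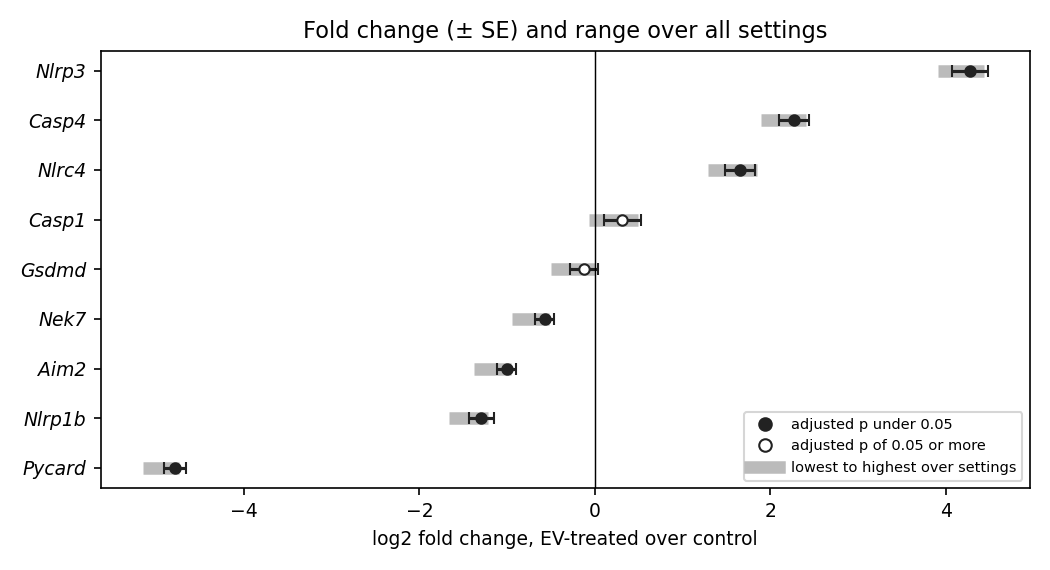
Log2 fold change of each gene, EV-treated over control, with its SE (points and bars; open points did not pass the test) and the lowest to highest value over the other settings (grey). The grey bar crosses 0 for Casp1 and ends just below 0 for Gsdmd (-0.50 to -0.00076), and for the 7 members that passed it stays clear of 0.

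Levels can be compared between genes only per length, so CPM were divided by the summed length of each gene's exon bins. In control libraries the order per kilobase was Casp1 (40.0 ± 6.43 CPM per kb), Gsdmd (23.4 ± 2.25), Pycard (15.7 ± 0.860), Nek7 (12.6 ± 1.3), Aim2 (10.3 ± 1.0), Casp4 (6.46 ± 1.43), Nlrp3 (5.20 ± 1.08), Nlrc4 (2.01 ± 0.478) and Nlrp1b (1.32 ± 0.108; SD, n = 3). The libraries of Nek7 and Aim2 overlapped in this order, as did those of Casp4 and Nlrp3, and the other neighbours were apart. In EV-treated libraries the order was Nlrp3 (100.7 ± 17.8 CPM per kb), Casp1 (49.7 ± 15.6), Casp4 (31.1 ± 4.28), Gsdmd (21.5 ± 4.96), Nek7 (8.46 ± 0.535), Nlrc4 (6.36 ± 0.481), Aim2 (5.14 ± 0.206), Pycard (0.571 ± 0.0579) and Nlrp1b (0.537 ± 0.0528). There Casp1 overlapped with Casp4, and Pycard with Nlrp1b. Nlrp3 thus went from seventh place to first and Pycard from the third to the eighth. The order depends on how length is counted: with the single bin of each gene that held the most counts, Pycard was first in control (58.9 ± 5.77 CPM per kb), and in EV-treated libraries Nlrp3 was still first but overlapped with Casp4.

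**Figure D3:**
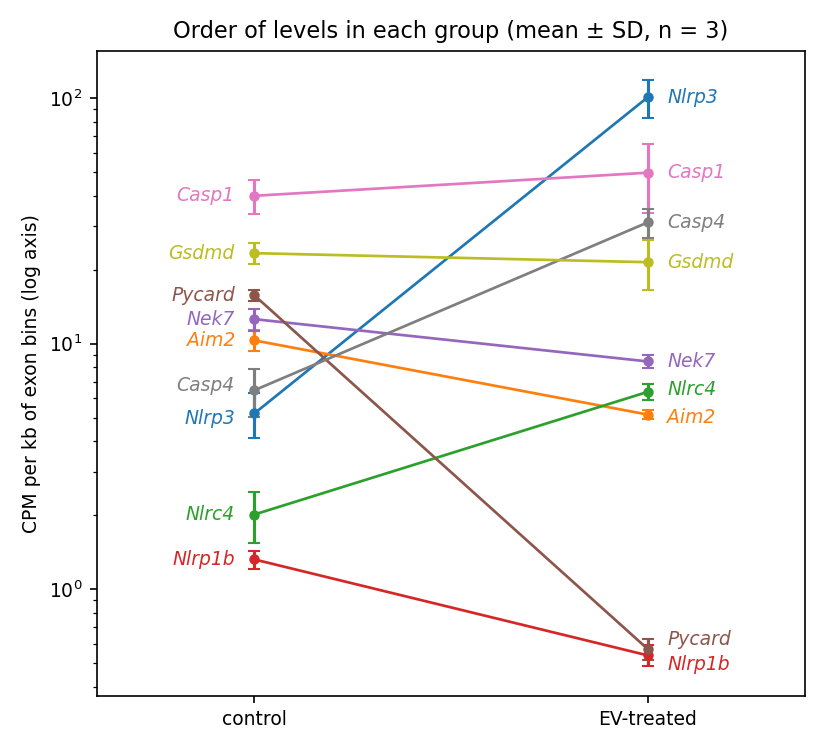
Mean level of each gene per kilobase of its exon bins (log axis) in control and EV-treated libraries, with SD bars (n = 3) and a line per gene. The lines of Nlrp3 (5.20 to 100.7 CPM per kb) and Pycard (15.7 to 0.571) cross, while those of Casp1 and Gsdmd stay nearly level.

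The ratio of adaptor to sensor within a library does not depend on library scaling. Per kilobase, control A, B and C had 3.59, 3.49 and 2.29 times as much Pycard as Nlrp3, and EV-treated A, B and C had 214, 127 and 197 times as much Nlrp3 as Pycard. No control library came near an EV-treated one. The log2 ratio of Pycard to Nlrp3 was 1.61 ± 0.36 in control and -7.45 ± 0.41 after EV treatment (SD, n = 3), a difference of -9.07 with an exact permutation p = 0.1 (2-sided), the smallest that 3 against 3 allows. Taken from the single bin of most counts, control A, B and C had 15.3, 15.0 and 9.46 times as much Pycard as Nlrp3. EV-treated A, B and C then had 48.9, 32.8 and 43.9 times as much Nlrp3 as Pycard. The ratios thus depend on how length is counted, while the log2 difference between groups, -9.06, was alike. Among the ratios looked at, that of the caspases narrowed: Casp1 exceeded Casp4 per kilobase 6.63, 5.84 and 6.29 times in control and 1.56, 1.85 and 1.29 times in EV-treated libraries. With the single bin of most counts, the ratio of Casp1 to Casp4 was 3.20, 2.54 and 3.36 in control and 0.789, 0.908 and 0.636 in EV-treated libraries, so the change was alike and the order in EV-treated libraries turned.

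Counts moved along the whole of most genes. The 9 genes have 136 exon bins, of which 116 were tested for a change in usage, that is, in a bin's share of its gene. Usage changed in 2 of the 116, both downward, against 4.19% of all 198361 bins tested. All 7 bins of Pycard were lower in EV-treated libraries, with log2 ratios of mean CPM between -5.06 and -4.50, and all 18 tested bins of Casp4 were higher, between 1.74 and 2.47. Bins 1 to 3 of Casp4, at its 5′ end, were not tested and did not rise. Their log2 ratios were -0.50, -0.35 and -0.09, on at most 11 counts in any library. For Nlrc4 the 9 bins ranged from 1.07 to 2.01, for Nek7 the 13 tested bins from -1.0 to -0.20 and for Nlrp1b the 13 tested bins from -1.79 to -0.92. Each of the 10 bins of Casp1 was slightly higher, from 0.06 to 0.55, and 10 of the 11 bins of Gsdmd were lower, with a range of -0.31 to 0.09.

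The first of the 2 bins with changed usage was bin 4 of Aim2, counted from the 5′ end (chr1:173419457-173419555). It held 75, 58 and 99 counts in control and 16, 11 and 12 counts in EV-treated libraries, and its log2 change relative to the gene was -0.88 (adjusted p = 0.0152). Bins 3 to 8 of Aim2 had log2 ratios of mean CPM from -2.28 to -1.24, while the whole gene fell by 1.0 on the log2 scale. The other was the second bin of Nlrp3 (chr11:59542686-59542755), which begins at the second annotated start, after the second of the printed Nlrp3 sequences. This bin held 2, 3 and 17 counts in control and 17, 38 and 22 counts in EV-treated libraries, with a log2 change of -1.45 relative to the gene (adjusted p = 0.0478). The bin of the first start (chr11:59541568-59541603) went from 5, 4 and 9 counts to 103, 77 and 112 counts, a log2 ratio of mean CPM of 4.35 beside 2.32 for the second bin. These counts are low, and the number of called bins fell to 0 without control B or without EV-treated C and to 1 without control A or without control C.

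**Figure D4:**
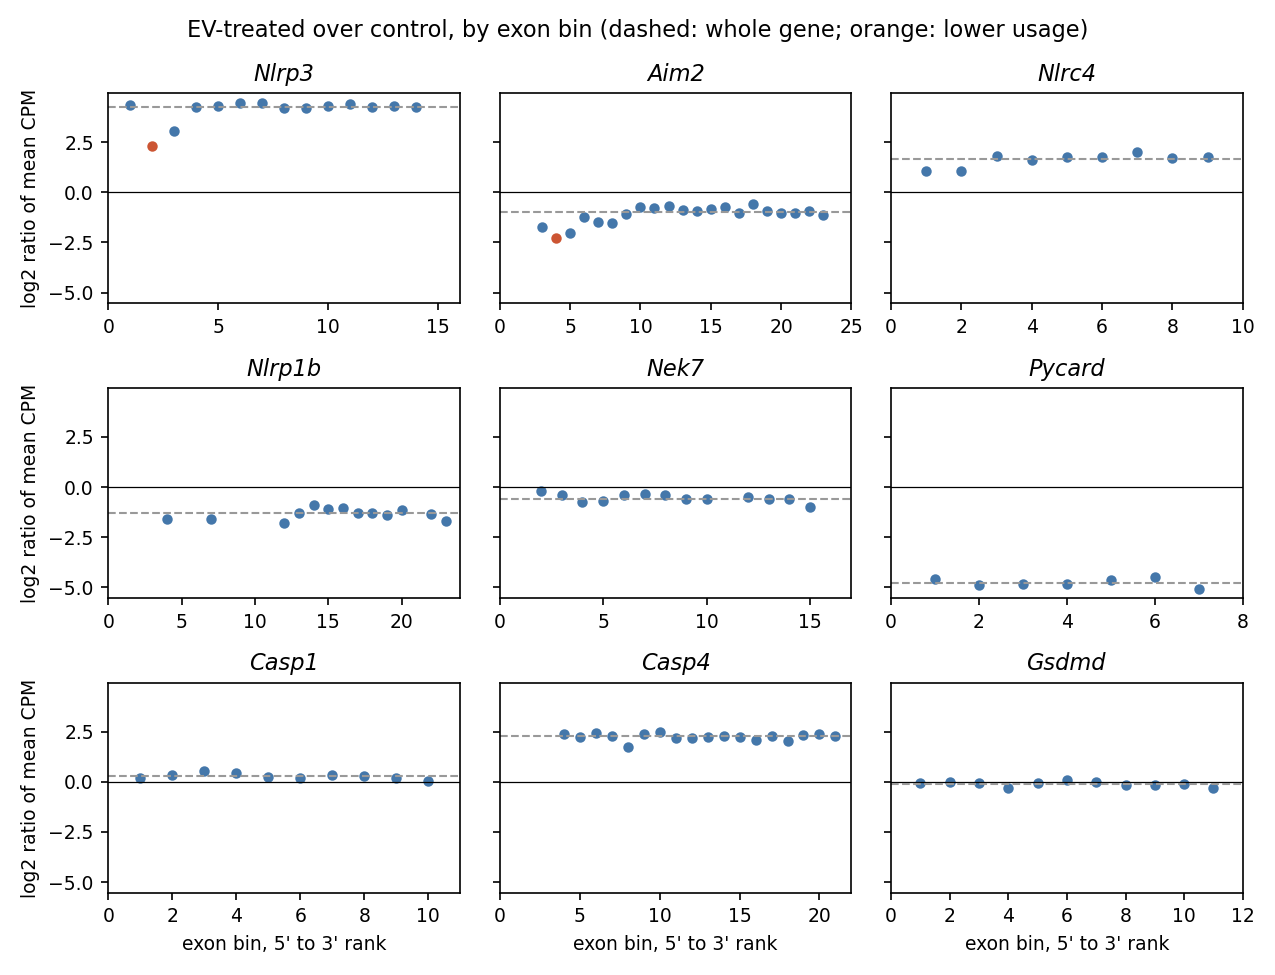
Log2 ratio of mean CPM, EV-treated over control, of each tested exon bin of the 9 genes, ordered 5′ to 3′, with the whole gene's log2 fold change as a dashed line. Bins lie close to the dashed line in most genes, and the 2 bins with lower usage, in Aim2 (-2.28) and Nlrp3 (2.32), are orange.

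The genes with the most similar pattern to 3 members were sought among 10753 entries by the root mean square difference of log2 CPM over the 6 libraries, each gene set relative to its control mean. Closest to Nlrp3 were Fzd1, a Wnt receptor (difference 0.14), Slc7a11, the cystine-glutamate exchanger (0.16), and Unc5b, a netrin receptor (0.17), with log2 fold changes of 4.10, 4.21 and 4.44. Closest to Pycard were Engase, a cytosolic glycosidase (0.07), Lsp1, an actin-binding protein of leukocytes (0.11), and Ccnd1, which encodes cyclin D1 (0.17), with log2 fold changes of -4.86, -4.88 and -4.97. Nearest to Casp1 were Clec12a, a C-type lectin receptor (0.08), Psme1, a proteasome activator subunit (0.11), and Tyw5, a tRNA-modifying enzyme (0.12), with log2 fold changes of 0.31, 0.38 and 0.36.

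The other genes of the pathway were taken from 10 lists with 103 symbols. Among their 86 tested entries there were 42 rises and 28 falls, beside 66.5% of all entries passing in either direction, and the median log2 fold change was 0.36. Library totals gave 35 rises and 36 falls, and upper-quartile scaling gave 40 and 33.

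In the list of interleukin 1 family substrates and antagonists, 4 of 5 tested genes rose, beside 33.0% of all entries, and none fell. The list's median was 4.38. Il1b, which encodes the main substrate of caspase-1, had 5.72, 6.40 and 7.02 CPM in control and 9297, 9505 and 8095 CPM after EV treatment, at a log2 fold change of 10.46 ± 0.21 (SE; edgeR adjusted p = 1.31e-09). For Il1a, which encodes the alarmin interleukin 1 alpha, it was 9.52 (SE 0.21, adjusted p = 2.18e-09), from 7.48, 7.88 and 8.58 CPM in control to 6500, 6229 and 4911 CPM after EV treatment. Il1rn, the receptor antagonist, went from 125 ± 34.9 to 2601 ± 281 CPM, and Il18, the other caspase-1 substrate, from 4.87 ± 0.688 to 25.8 ± 11.3 CPM (SD, n = 3). Their log2 fold changes were 4.38 and 2.40. Il18bp, a decoy for interleukin 18, did not pass, at 0.35 (adjusted p = 0.0569), and was at -0.02 with library totals.

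The other sensors differed by list, beside 33.0% of all entries that rose and 33.5% that fell. Of 4 NAIP receptors, which hand bacterial ligands to NLRC4, 3 fell and the median was -1.65, while Nlrc4 itself rose. Naip6 fell by 2.32, Naip5 by 1.97 and Naip1 by 1.32 on the log2 scale, and Naip2 was at -0.22 (adjusted p = 0.135), which also passed as a fall with library totals or upper-quartile scaling. The NAIP genes share 4.44% to 16.2% of their stretches of 100 bases with other genes, so their split may be uncertain in part. The 7 tested genes among 11 other NLR and pyrin sensors gave 1 rise, 5 falls and a median of -1.5. Nod2, a receptor of bacterial cell wall peptides, rose from 2.70 ± 0.430 to 17 ± 1.92 CPM (SD, n = 3), a log2 fold change of 2.66. Nlrp1a, the neighbour of Nlrp1b, fell by 2.80, Nlrx1, a mitochondrial regulator, by 1.74, Nlrp10 by 1.61, Nod1 by 1.5 and Nlrc3 by 1.25 on the log2 scale. The 10 nucleic acid sensors gave 5 rises, 3 falls and a median of 0.76, and with library totals or upper-quartile scaling 4 fell. Ifi205 (log2 fold change 4.46), Ifi213 (2.42), Ifi204 (1.75) and Ifi211 (1.63) belong to the same HIN-200 family as Aim2 and rose, as did Zbp1, a sensor of Z-form nucleic acids (2.80). Ifi207 of that family fell by 0.76, Ddx3x, an RNA helicase that binds NLRP3, by 0.96, and Dhx33 by 0.67 on the log2 scale.

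Genes upstream of NLRP3 split. In the list of priming and ion flux genes, 4 of 13 rose and 7 fell, beside 33.0% and 33.5% of all entries. The median was -0.43, and with library totals 3 rose and 9 fell. Tlr2, a receptor of bacterial lipoproteins, rose from 48.1 ± 6.96 to 512 ± 71.0 CPM (SD, n = 3), a log2 fold change of 3.41, and Nfkb1 (1.31), the pannexin channel Panx1 (1.0) and Rela (0.50) also rose. The call for Rela was lost with library totals (adjusted p = 0.331). Txnip, a thioredoxin-binding partner of NLRP3, fell by 2.70 and Kcnk13, a potassium channel of microglia, by 2.69 on the log2 scale. The other falls were Tlr4 (-0.85), Kcnk6 (-0.85), P2rx7 (-0.73, an entry joined with another gene), P2rx4 (-0.65) and Myd88 (-0.43). Of 15 tested enzymes and chaperones that act on the sensors, 8 rose and 6 fell, beside the same shares of all entries. The median was 0.62. Tnfaip3, the ubiquitin-editing enzyme A20 that restrains NF-kB, had a log2 fold change of 3.12, and the chaperone Hsp90ab1 of 1.51. The kinase Btk fell by 1.99 and the adaptor Card9 by 1.84 on the log2 scale.

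In the list of interferon-inducible GTPases, 7 of 8 tested entries rose, as Casp4 of the non-canonical route did, and none fell. Of all entries, 33.0% rose and 33.5% fell. The list's median was 2.80. It holds Gbp genes, whose products open bacterial membranes to caspase-11, and also Irgm1, Irgm2 with Igtp, and Gm12250. Gbp5 had 0.880, 1.61 and 1.4 CPM in control and 181, 197 and 134 CPM after EV treatment, a log2 fold change of 7.04 ± 0.26 (SE; edgeR adjusted p = 2.56e-08), and for Gbp3 the log2 fold change was 5.5 (SE 0.27). Gm12250 was at 0.68 (adjusted p = 0.0732). The entries of Gbp4, Gbp7 and Irgm2 each hold several genes. Of their stretches of 100 bases, Gbp7 shares 10.0%, Igtp 5.16% and Irgm2 3.01% with other genes, and the others on the list share less. Of 9 tested genes of other pores, rupture and membrane repair, 5 rose and none fell, beside 33.0% and 33.5% of all entries. The median was 0.37, though upper-quartile scaling gave 4 rises and 1 fall and library totals 3 and 2. Ninj1, the membrane protein that ruptures the dying cell, rose from 70.8 ± 12.3 to 518 ± 85.7 CPM (SD, n = 3), a log2 fold change of 2.87. Vps4b, an ATPase of the repair machinery, had a log2 fold change of 0.71, Chmp4b of 0.61 and Pdcd6ip of 0.32, the last of which turned to -0.05 with library totals. The call for Chmp4b was also lost there (0.24, adjusted p = 0.0973). Gsdma rose too, but was barely detected in control, at 0.0128 ± 0.0117 and 0.251 ± 0.122 CPM. In control libraries 3 counts stand for 0.0159 to 0.0236 CPM. Gsdme, the gasdermin of caspase-3, was at -0.25 (adjusted p = 0.135) but passed as a fall with upper-quartile scaling (adjusted p = 0.0398) and library totals (adjusted p = 0.00541).

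The 10 other caspases and necroptosis genes gave 6 rises and 1 fall, beside 33.0% and 33.5% of all entries. Their median was 0.59, but with library totals 4 rose and 3 fell. Cflar, an inhibitor of caspase-8, went from 94.3 ± 9.55 to 562 ± 42.5 CPM and Mlkl, the pore protein of necroptosis, from 6.53 ± 1.95 to 75.9 ± 10.6 CPM (SD, n = 3), log2 fold changes of 2.57 and 3.54. Casp9, the initiator of the mitochondrial death pathway, fell by 0.97 on the log2 scale. The last list, of serpins, decoys and other genes of interleukin 1 signalling, gave for its 5 tested entries 2 rises and 3 falls. These stand beside the same shares of all entries, and the list's median was -0.46. Cd300lf had a log2 fold change of 2.66. Gsk3b had one of 0.48, a call that was lost with library totals (adjusted p = 0.532) and upper-quartile scaling (adjusted p = 0.0645). Serpinb9, an inhibitor of granzyme B and caspase-1, fell by 1.61 on the log2 scale. Sigirr, an inhibitory receptor of interleukin 1 signalling, fell by 2.18 and Il1rap, a receptor subunit, by 0.46.

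**Figure D5:**
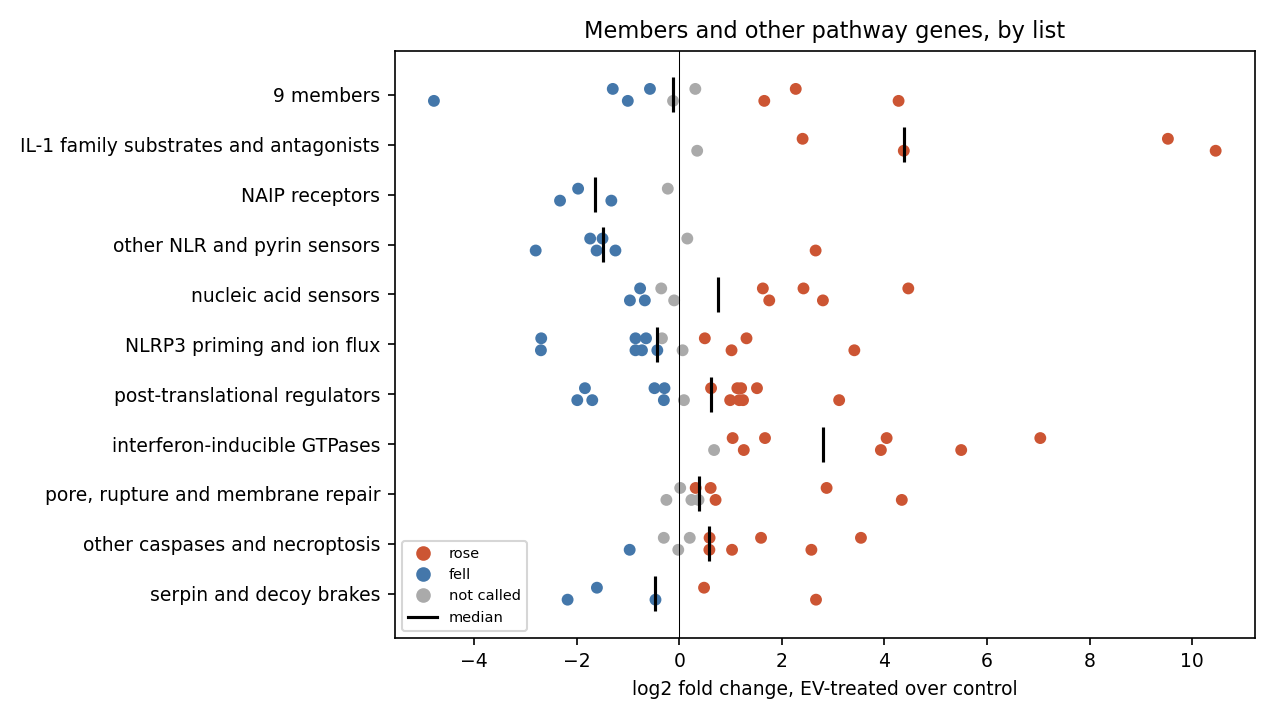
Log2 fold change, EV-treated over control, of the 9 genes and of each tested entry of the 10 other lists (orange, rose; blue, fell; grey, did not pass), with the list's median as a bar. The medians run from -1.65 for the NAIP receptors to 4.38 for the interleukin 1 family.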

How the data were processed

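RNA selected for polyadenylated transcripts was made into libraries with an NEBNext Ultra kit, per the labels' protocols. Trimmomatic 0.36, STAR, Subread, DESeq2 and the build GRCm38 are named in the submitters' processing notes, without settings. The strand setting is not given in the sources used here, so overlapping and antisense genes may share reads. The deposited values are raw counts per exon bin, per the file headers. Whether a read that spans several bins was counted in each is not given in the sources used here, so sums over bins may exceed the distinct reads. Joined entries hold several genes and are 1194 of 48005.

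Counts were summed per gene entry, filtered with filterByExpr and scaled by TMM (factors 1.09 to 1.16 for control, 0.855 to 0.921 for EV-treated samples). Groups were compared over all entries with edgeR 4.0.16 in R 4.3.3 (glmQLFit, glmQLFTest, no covariate, 2-sided, Benjamini-Hochberg adjustment, threshold 0.05). The common biological coefficient of variation was 0.174. CPM use TMM library sizes. Bin usage was tested with edgeR's diffSpliceDGE. Lists were described by counts and medians, without a set test. Sting1 and Marchf7 matched no symbol used here, and promoter sequences came from RefSeq (GRCm38.p6), with entries for 8 of 9 genes.

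The 9 genes and the lists were chosen with earlier results of these data known. Named were all 9, per list up to 2 rising and 2 falling genes of smallest p whose groups did not overlap, and the 3 most similar entries for Nlrp3, Pycard and Casp1 (mean log2 CPM of at least 1, prior count 2). Genes added to account for a count were chosen after their values were seen. On simulated counts with 15326 genes, edgeR called 50 of 50 genes at each log2 change of -2 and 2, 39 of 49 at -1, 41 of 50 at 1, and 8 of 15123 unchanged genes. In the simulation few genes changed, rises and falls were balanced, and all genes had the same dispersion. In the real data 66.5% of entries were called, so these counts do not give the error rate here. Alternatives were 3 other scalings (RLE, upper quartile, library totals), testing without a filter or with one asking 50 counts in 3 or more libraries, limma-voom 3.58.1, DESeq2 1.42.0, a block for the replicate letter, leaving out libraries one by one, and using the single bin with most counts. A bin length with 149 bases added for reads that overlap a bin (an assumed value), and ratios other than Pycard to Nlrp3, were chosen after seeing the data.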

Additional observations from a re-analysis of the deposited data

How the results depend on the processing

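Of 242 recomputed values over 17 results, 232 kept their direction and side of the threshold or, for counts, stayed within 1.5 times. The 7 called members passed in the same direction under all 15 alternatives each, with Nlrp3 between 3.91 and 4.44, Pycard between -5.15 and -4.74, Casp4 between 1.89 and 2.41, Nlrc4 between 1.29 and 1.84, Aim2 between -1.37 and -0.95, Nlrp1b between -1.66 and -1.22 and Nek7 between -0.94 and -0.53 (log2). The other two were less settled. Casp1 was at -0.070 with library totals and between 0.052 and 0.49 with one library left out, the highest without EV-treated C. Gsdmd was at -0.50 with library totals (5 members then fell) and between -0.31 and -0.00076 with one library left out. The number of member bins with changed usage, 2 in the report, was 1 under the stricter filter, 1 with library totals and 1 with the replicate block, and between 0 and 2 with one library left out: 0 without control B or EV-treated C, 1 without control A or C, and 2 without EV-treated A or B. The cause was not tested. With library totals, 34.0% of all calls were rises, against 49.7% with TMM scaling. The log2 ratio of Pycard to Nlrp3 differed between the groups by -9.30 to -8.92 with one library left out.

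The labels do not say that a replicate letter pairs samples, so the samples were not taken as paired. Deviations from the group means correlated at 0.0350 for letter A, 0.167 for B and 0.210 for C, so the samples were not taken as paired, although each sample correlated best with its own letter. With the letter as a block, 5758 entries rose and 5851 fell (5482 and 5555 without), 3 members rose and 4 fell, Casp1 was at 0.28 (adjusted p = 0.126) and Gsdmd at -0.14 (adjusted p = 0.243, edgeR). Depth limits the 5′ bins of Nlrp3, with 2 to 38 counts in the second.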

Other observations

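Casp1, Casp4 and Gsdmd ranked the libraries of each group alike: control B above C above A, and EV-treated B above A above C. The order was taken from these 3 members, so its count of 3 among the 9 was fixed by that choice and is no result. In the other lists it held for 5 of 8 tested entries of the interferon-inducible GTPases, 3 of 10 nucleic acid sensors and 1 of 5 genes of the interleukin 1 family. It also held for 1 of 10 other caspases and necroptosis genes, 1 of 15 post-translational regulators, and 660 of all 16605 tested entries (3.97%). It held for 0 of 4 NAIP receptors, 0 of 7 other NLR and pyrin sensors, 0 of 13 priming and ion flux genes, 0 of 9 pore and repair genes and 0 of 5 entries of the serpin and decoy list. Neither Nlrp3 (control C above B above A, EV-treated C above A above B) nor Pycard (control A above B above C, EV-treated B above C above A) shared it. The pattern was noticed after the values were seen, it rests on 3 libraries a group and on no test, and members chosen for 1 pathway are not independent of each other.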
